A study of Rattus norvegicus with 8 samples.

Results

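Nuclear hormone receptors were compared between male and female rat kidney. The list held 39 genes, and a gene was taken as measured when the RefSeq accession of a probe on the array mapped to it. For genes with several probes, the probe with the highest mean signal over all arrays was used. By this rule 35 of the 39 receptors had a named probe, against 14737 genes with a named probe on the whole array, and no named probe was found for Rarb, Nr2e3, Nr5a1 and Rora. The probes of 33 receptors were well above background on 4 or more of the 8 arrays and were tested, as were those of 11827 genes of the array. Esrrb, an estrogen-related orphan receptor, was well above background on 0 arrays, and Nr5a2, a regulator of bile acid and steroid synthesis genes, on 2 female arrays and 1 male array.

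The study asked which renal genes differ between the sexes. RNA came from cortical kidney slices of 4 male and 4 female adult RCCHanTMWIST rats, with no treatment named in the labels, and each rat had an array of its own (1-colour, Cy3). The stage of the female cycle and hormone levels were not given in the sources used here. A cortical slice mixes proximal and distal tubules, glomeruli, vessels and interstitium, so for every gene below, fewer cells of a type and less RNA per cell cannot be told apart. Values are log2 signals relative to the 75th percentile of the signal on the same array, which lay between 5025 and 6547 on the 8 arrays, so that a value of 0 is the signal of that percentile. Differences are log2 fold changes, male minus female, with their standard error (SE) and the adjusted p of limma (Benjamini-Hochberg over 23425 probes). Between 73.8% and 79.1% of the probes of an array were well above background, and 0 spots were saturated. All arrays lay on 1 slide, with both sexes in both of its rows. The markers of proximal tubule, thick ascending limb, collecting duct, podocyte, endothelium and stroma were measured above background. Of the 6 adrenal genes, Cyp11a1 and Hsd3b1 were well above background on all 8 arrays, Cyp11b2 on 2 female arrays, Mc2r on 1 male array, and Star and Cyp11b1 on 0. Of the 3 liver genes, Alb was well above background on 3 female and 4 male arrays, Ttr on 4 and 2, and Apoa1 on 0. Of 40 marker genes tested, 0 were higher in males at an adjusted p below 0.05, and 4 were higher in females: Cubn of the proximal tubule (log2 fold change -0.59), Cldn16 of the thick ascending limb (-0.62), Podxl of the podocyte (-0.27) and the liver gene Ttr (-5.53).

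Nuclear receptors are transcription factors that are switched by small fat-soluble ligands. Steroid receptors act as dimers on palindromic DNA elements, whereas the thyroid hormone, retinoid, vitamin D and lipid receptors mostly pair with a retinoid X receptor on repeats of a half-site. Orphan receptors have no settled hormone, and a few of them, such as Nr0b2, lack a DNA-binding domain and repress other receptors. In the kidney these proteins set sodium retention, calcium and phosphate handling, fatty acid oxidation and the supply of drug and bile acid transporters.

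Esr1, Ppard and Nr0b2 differed between the sexes at an adjusted p below 0.05. Esr1, the estrogen receptor alpha, and Ppard, a fatty acid receptor that drives fat oxidation, were higher in males. Nr0b2, known as small heterodimer partner, was higher in females. This is 3 of 33 receptors, beside 8.05% of all probes tested, and by direction 2 beside 3.39% of probes higher in males and 1 beside 4.66% higher in females. Esr1 and Ppard also differed at least 2-fold, as 1.89% of all probes did in either direction and 0.798% in the direction of males. The values of males and females did not overlap for 8 receptors, beside 18.5% of all probes. An unadjusted p below 0.05 was reached by 12 receptors, 6 in each direction, beside 25.6% of all probes (9.73% higher in males and 15.8% higher in females). The share of receptors called at the adjusted p lay near that of the array. The log2 fold change was positive for 14 receptors and negative for 19, with a median of -0.08 and a median size of 0.21, where all probes had a median of -0.04 and a median size of 0.154. Leaving out any 1 rat kept the same 3 receptors called.

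**Figure D1:**
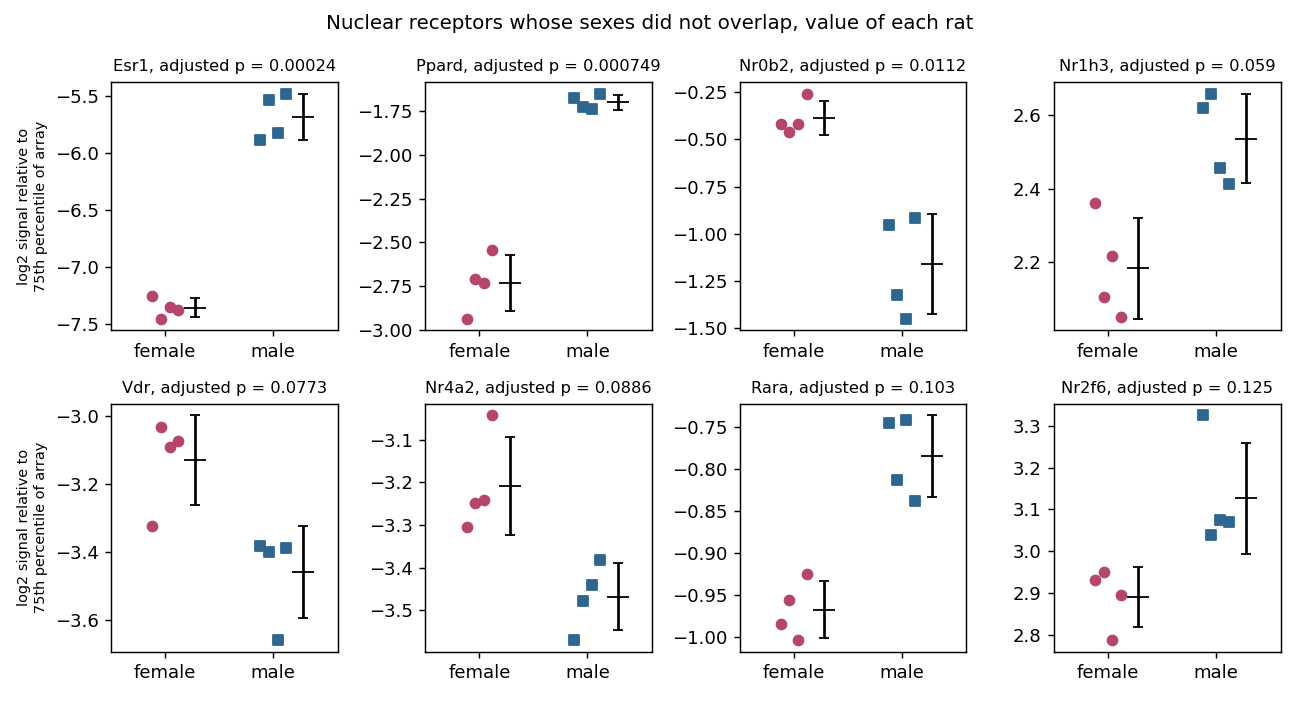
Log2 signal relative to the 75th percentile of the array (y axis, a separate scale for each gene) of the 8 receptors whose sexes did not overlap. Circles are the 4 females and squares the 4 males, with the mean and SD (n = 4) as a black bar beside them, and the means of the sexes lie farthest apart for Esr1, by 1.67 on the log2 scale.

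Promoter sequences are shown for the steroid receptor and the orphan receptor that differed between the sexes. They are the RefSeq windows of rat build GRCr8, from 250 bases before to 50 bases after the transcription start, both on the plus strand, at chr1:43641845-43642144 for Esr1 and chr5:151062910-151063209 for Nr0b2. Capitals mark matches, on either strand, of TCAAGG, the core that NR5A and estrogen-related receptors bind, and of TTCNNNGAA, the palindrome that STAT proteins bind.
Esr1: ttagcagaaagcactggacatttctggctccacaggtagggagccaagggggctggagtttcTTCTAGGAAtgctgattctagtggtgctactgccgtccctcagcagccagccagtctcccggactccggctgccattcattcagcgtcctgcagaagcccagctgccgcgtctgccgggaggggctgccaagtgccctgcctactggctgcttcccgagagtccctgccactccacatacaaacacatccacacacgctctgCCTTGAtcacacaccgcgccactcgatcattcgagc
Nr0b2: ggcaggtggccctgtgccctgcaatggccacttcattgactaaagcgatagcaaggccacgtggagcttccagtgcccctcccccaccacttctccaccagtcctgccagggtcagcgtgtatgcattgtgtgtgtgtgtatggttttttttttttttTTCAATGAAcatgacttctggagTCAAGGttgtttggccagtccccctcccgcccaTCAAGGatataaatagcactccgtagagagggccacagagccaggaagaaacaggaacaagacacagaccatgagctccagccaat
In Esr1, TTCTAGGAA began at base 63 of the window, which is position -188 from the start, and CCTTGA, the reverse complement of TCAAGG, at base 265. In Nr0b2, TTCAATGAA began at base 159, and TCAAGG at bases 182 and 215, close to the start at base 251. The matches of one motif do not overlap those of the other. TCAAGG was found in 14.8% of the 33469 promoter windows of the same length and in those of 5 of the 30 receptors with a window (Esr1, Esrrg, Nr0b2, Ppara and Thrb). Percentages count windows, whereas a receptor counted if any of its windows matched, and the 30 receptors had 37 windows. TTCNNNGAA was found in 8.87% of all windows and in those of 3 receptors (Esr1, Esrrb and Nr0b2). The half-site AGGTCA, searched for on both strands as well, was found in 16.2% of windows and in those of Esrrg, Nr0b1, Nr5a2 and Rarg. The full estrogen element GGTCANNNTGACC was found in 0.0269% of windows, the glucocorticoid element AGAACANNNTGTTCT in 0.0149%, and each in 0 of the 30 receptors. Nr1h4, Nr2f2, Nr3c2, Nr4a3 and Ppard had no window in the table.

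Of the 5 steroid receptors, Esr1 was the member that passed the adjusted p. Its relative log2 signal was -7.25, -7.45, -7.35 and -7.37 in females 1 to 4 and -5.89, -5.54, -5.82 and -5.48 in males 1 to 4. All 4 males lay above all 4 females, and the distance between the nearest male and female exceeded the range within either sex. The log2 fold change was 1.67 (SE 0.11, adjusted p = 0.00024), or 3.19-fold, with a 95% interval of 1.43 to 1.92, and the exact permutation p was 0.0286, the smallest that 4 rats against 4 allow. The difference was 1.68 in row 1 of the slide and 1.67 in row 2, each with 2 rats per sex. The probe was dim, with signals of 29.5 to 37.9 in females and 111 to 145 in males, although it was well above background on all 8 arrays. With normexp background correction the log2 fold change of Esr1 was 0.71 (adjusted p = 0.00128), below 2-fold. That setting also added an offset of 50 and used the median spot signal, and their parts in the smaller value were not tested.

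The other steroid receptors did not pass the adjusted p. Esr2, the estrogen receptor beta, was well above background on 2 female and 4 male arrays, at -8.41 to -7.66 in females and -7.81 to -7.39 in males, with a log2 fold change of 0.40 (SE 0.16, adjusted p = 0.169). Its sexes overlapped, and both other probes of Esr2 were well above background on 0 arrays. The log2 fold change of Esr2 was -0.02 with normexp correction, so its direction was not settled. Pgr, the progesterone receptor and a classical target of estrogen, was well above background on 3 female and 2 male arrays, with a log2 fold change of -0.38 (SE 0.14, adjusted p = 0.143). The probe of Pgr gave signals of 17.6 to 32.3 over all rats, near the limit of detection.

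Both corticosteroid receptors were well above background in every rat. Nr3c1, the glucocorticoid receptor, measured -0.90, -1.11, -0.69 and -0.73 in females 1 to 4 and -0.80, -1.03, -0.59 and -0.65 in males 1 to 4. These sets of values overlapped almost fully, and the log2 fold change was 0.09 (SE 0.13, adjusted p = 0.697), with a 95% interval of -0.20 to 0.38. A second probe of Nr3c1 gave -0.07. Nr3c2, the mineralocorticoid receptor that mediates aldosterone action in the distal nephron, measured -0.19, -0.39, -0.33 and -0.12 in females 1 to 4 and -0.61, -0.49, -0.18 and -0.51 in males 1 to 4. Apart from male 3, the males lay below the females, with a log2 fold change of -0.19 (SE 0.11, adjusted p = 0.309). The second probe of Nr3c2 gave -0.21 (adjusted p = 0.215).

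**Figure D2:**
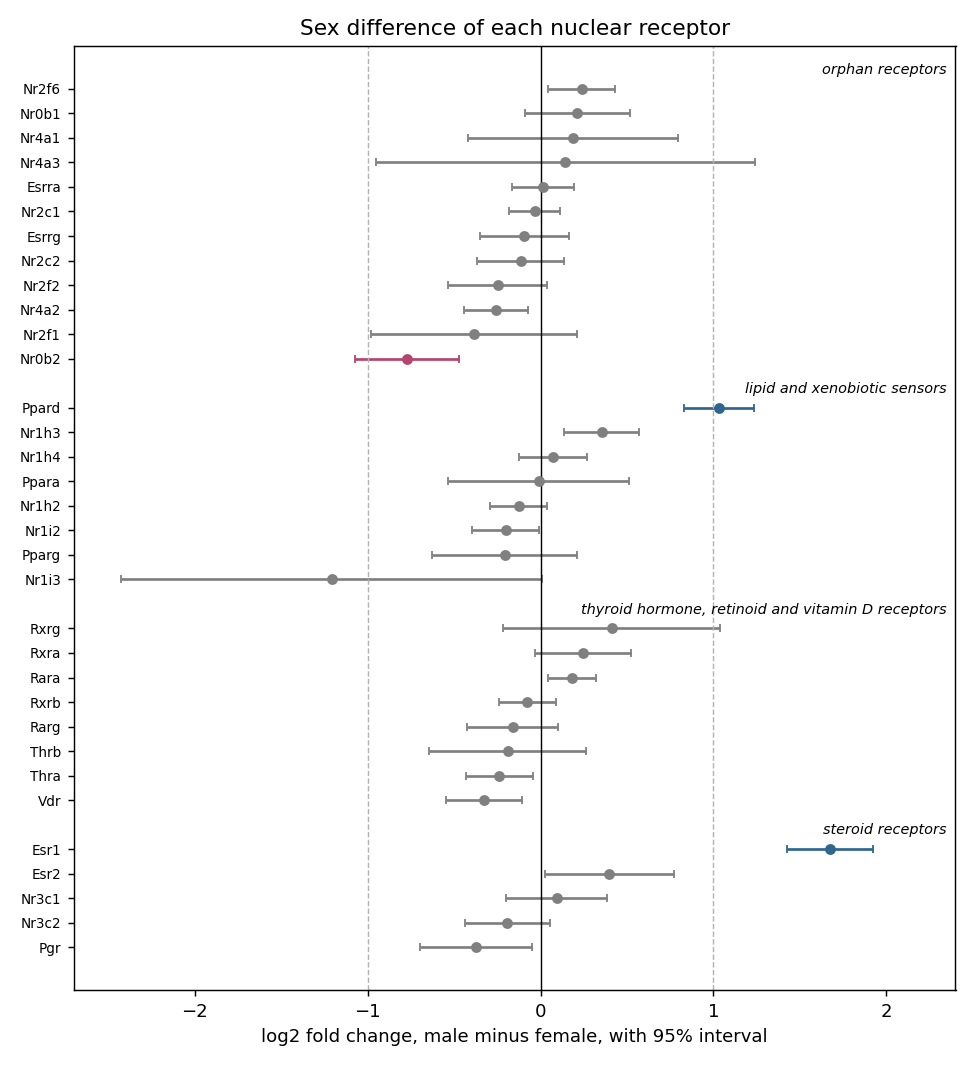
Log2 fold change, male minus female (x axis), of the 33 receptors tested, grouped by role, with the 95% interval of the limma fit as a bar. Coloured points passed an adjusted p of 0.05 (blue, higher in males; red, higher in females), grey points did not, and dashed lines mark a 2-fold difference, which the intervals of Rxrg, Nr1i3 and Nr4a3 reach without being called.

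None of the 8 measured thyroid hormone, retinoid and vitamin D receptors passed the adjusted p of limma, while 3 had an unadjusted p below 0.05 (Vdr, Thra and Rara). Vdr, the vitamin D receptor that governs renal calcium reabsorption, was -3.32, -3.03, -3.09 and -3.07 in females 1 to 4 and -3.38, -3.40, -3.66 and -3.39 in males 1 to 4. Every male lay below every female, though male 1 and female 1 were only narrowly apart. It differed by -0.33 on the log2 scale (SE 0.10, adjusted p = 0.0773), and the exact permutation p was 0.0286. Rara, the retinoic acid receptor alpha, was -0.98, -0.96, -1.00 and -0.92 in females 1 to 4 and -0.75, -0.81, -0.74 and -0.84 in males 1 to 4. Its sexes did not overlap, and the small log2 fold change of 0.18 (SE 0.06) gave an adjusted p of 0.103.

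Thra, the thyroid hormone receptor alpha, was -2.18 to -1.85 in females and -2.27 to -2.13 in males (log2 fold change -0.24, SE 0.09, adjusted p = 0.129). Female 1 lay within the range of the males. Thrb, the beta form, was above background on 2 female and 3 male arrays, with a log2 difference of -0.19 (adjusted p = 0.597). Rarg, the gamma retinoic acid receptor, had a log2 difference of -0.16 (adjusted p = 0.427), and its second probe gave 0.01. The retinoid X receptors are the shared partners of this group. Their log2 fold changes were 0.25 for Rxra (adjusted p = 0.244), -0.08 for Rxrb (0.556) and 0.41 for Rxrg (0.395). Of these, Rxrg varied most among the rats, from -0.51 to 0.61 in females and from -0.01 to 0.93 in males, and its 95% interval of -0.22 to 1.04 leaves a 2-fold difference possible.

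Among the lipid and xenobiotic sensors, the difference lay in Ppard and not detectably in the other PPARs. Ppard was -2.94, -2.71, -2.73 and -2.54 in females 1 to 4 and -1.68, -1.73, -1.74 and -1.65 in males 1 to 4. The males were close together and far from the females. Males exceeded females by 1.03 on the log2 scale (SE 0.09, adjusted p = 0.000749), or 2.05-fold, with a 95% interval of 0.83 to 1.24. It was 0.98 and 1.09 within the rows of the slide. The second probe of Ppard was also higher in males, by less (0.46, SE 0.09, adjusted p = 0.0253), so the direction held on both probes and the 2-fold size did not. Without female 1, the log2 fold change of Ppard was 0.96, just below 2-fold, and with normexp correction it was also 0.96.

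Ppara, the receptor targeted by fibrates, was -3.70, -3.88, -3.15 and -2.83 in females 1 to 4 and -3.16, -3.39, -3.64 and -3.43 in males 1 to 4. The males lay inside the range of the females, and the log2 fold change was -0.01 (SE 0.23, adjusted p = 0.982, 95% interval -0.54 to 0.51). Pparg, the receptor of fat cell differentiation, was -3.11, -3.96, -3.87 and -3.51 in females 1 to 4 and -3.83, -3.80, -3.66 and -3.99 in males 1 to 4. Female 1 was the highest of the 8 rats, and the log2 fold change was -0.21 (SE 0.18, adjusted p = 0.526). The adipose tissue genes Adipoq, Cfd and Fabp4 were also highest in female 1, at -0.79, -1.82 and -3.18, against -1.78 to -1.03, -5.68 to -3.52 and -9.55 to -5.03 in the other rats. Lep was not highest there, and Plin1 had no named probe. The part of adipose tissue in the value of Pparg was not tested.

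The liver X receptors sense oxysterols. Nr1h3 (LXR alpha) was 2.36, 2.10, 2.22 and 2.05 in females 1 to 4 and 2.62, 2.66, 2.46 and 2.41 in males 1 to 4. The sexes did not overlap, and the log2 fold change of 0.35 (SE 0.09) narrowly missed the threshold (adjusted p = 0.059). Nr1h3 was below it with quantile normalization (0.0347), in the authors' log2 values (0.0358), with normexp correction (0.0445) and with an intensity trend and robust prior (0.0291). Nr1h2 (LXR beta) had a log2 difference of -0.13 (adjusted p = 0.302). Nr1h4 (FXR), the bile acid receptor, was 2.79 to 2.95 in females and 2.78 to 3.12 in males, with 0.07 on the first probe (95% interval -0.13 to 0.27) and 0.01 on the second.

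The xenobiotic sensors were measured in every rat. Nr1i2 (PXR) was 0.49, 0.40, 0.30 and 0.22 in females 1 to 4 and 0.29, 0.13, 0.05 and 0.14 in males 1 to 4. Male 1 was the male within the female range, and the log2 fold change was -0.20 (SE 0.09, adjusted p = 0.182). Nr1i3 (CAR) was -4.78, -6.35, -4.47 and -6.73 in females 1 to 4 and -6.97, -6.97, -6.02 and -7.22 in males 1 to 4. Females 1 and 3 stood above all other rats, which gave a female SD of 1.12 (n = 4). Nr1i3 had a log2 fold change of -1.21 (SE 0.53, adjusted p = 0.198), and its 95% interval of -2.43 to 0.01 was the widest among the receptors. A second probe of Nr1i3 was well above background on 2 female arrays and 0 male arrays.

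Nr0b2 was the called member of the orphan receptors. It was -0.42, -0.46, -0.42 and -0.26 in females 1 to 4 and -0.96, -1.32, -1.45 and -0.92 in males 1 to 4. All females lay above all males, and the males were more spread (SD 0.27, against 0.09 in females, n = 4 each). Its log2 fold change was -0.77 (SE 0.13, adjusted p = 0.0112), or 1.71-fold higher in females, with a 95% interval of -1.07 to -0.47. It was -0.60 in row 1 of the slide and -0.95 in row 2. Nr0b1, known as DAX1, the related receptor that likewise lacks a DNA-binding domain, had a log2 fold change of 0.21 (SE 0.13, adjusted p = 0.352), with overlapping sexes.

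The NR4A receptors are early response genes with no settled hormone. Nr4a2 was -3.30, -3.25, -3.24 and -3.04 in females 1 to 4 and -3.57, -3.48, -3.44 and -3.38 in males 1 to 4. The sexes did not overlap, with a log2 fold change of -0.26 (SE 0.08, adjusted p = 0.0886) and an exact permutation p of 0.0286. A second probe of Nr4a2 gave -0.31 (adjusted p = 0.205). Nr4a1 and Nr4a3 varied between rats and not detectably between sexes. Nr4a1 ranged from -2.31 to -1.06 in females and from -1.83 to -1.12 in males, with a log2 difference of 0.19 (adjusted p = 0.706). Nr4a3, above background on 2 female and 3 male arrays, ranged from -8.80 to -6.72 and from -8.24 to -6.84, with 0.14 (adjusted p = 0.886). Both genes were highest in female 4 and male 4 and lowest in female 1. Of the 5 immediate early genes tested, Atf3 was likewise lowest in female 1 (-3.39) and highest in female 4 (-2.60), though male 4 was not its highest male, and Junb was highest in male 4 (2.18). Fos was highest in female 3, Egr1 in male 2 and Ier2 in female 3. The part of an early gene response in the values of the NR4A receptors was not tested.

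**Figure D3:**
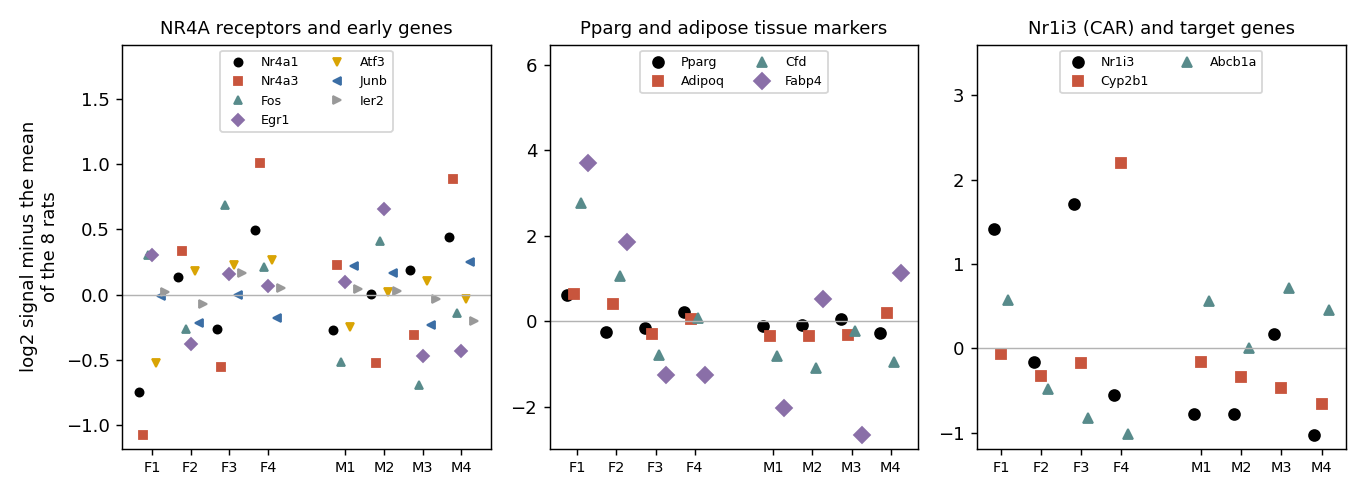
Log2 signal of each rat minus the mean of the 8 rats (y axis) for receptors with a wide spread and for genes linked to them, with females F1 to F4 and males M1 to M4 on the x axis. Nr4a1 and Nr4a3 were highest in F4 and M4, Pparg, Adipoq, Cfd and Fabp4 were highest in F1, and Nr1i3 was highest in F1 and F3.

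Nr2f6, an orphan receptor related to the COUP factors, was 2.93, 2.95, 2.79 and 2.89 in females 1 to 4 and 3.33, 3.04, 3.07 and 3.07 in males 1 to 4. The sexes did not overlap, male 1 was far above the other males, and the log2 fold change was 0.24 (SE 0.08, adjusted p = 0.125). The second probe of Nr2f6 gave 0.29 (adjusted p = 0.0584). The COUP factors Nr2f1 and Nr2f2, which mark venous, stromal and developing renal cells, had log2 fold changes of -0.39 (adjusted p = 0.398) and -0.25 (0.256). The testicular receptors Nr2c1 and Nr2c2 had -0.03 (0.782) and -0.12 (0.562). Of the estrogen-related receptors, which drive mitochondrial genes, Esrra was 3.03 to 3.11 in females and 2.97 to 3.22 in males, with a log2 fold change of 0.02 (95% interval -0.16 to 0.20), and Esrrg had -0.09 (adjusted p = 0.645). Esrrb ranged from -10.74 to -7.54 over all rats and Nr5a2 from -9.29 to -7.55, both mostly below the limit of detection.

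Of the 30 receptors tested and not called, 27 had a 95% interval that lay within a 2-fold difference in either direction, and 21 had one within 1.5-fold. The 27 include Esr2, Pgr and Thrb, which were dim and not well above background on every array. Their intervals may therefore not bound the difference in RNA. The intervals that reached 2-fold were those of Rxrg, Nr1i3 and Nr4a3. The median SE was 0.11 for the receptors as for all probes.

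Partners, ligand enzymes and target genes of the receptors were examined as 14 lists with 125 genes, of which 103 were tested. Of these 103 genes, 19 were higher in males at an adjusted p below 0.05, where 3.39% of all 23425 probes tested were. Another 3 were higher in females, where 4.66% of all probes were. The median log2 fold change of the 103 genes was 0.09, against -0.04 for all probes. Without male 1, 12 genes were higher in males.

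Among the 13 coregulators tested, Ncoa2, the coactivator also known as TIF2, was higher in females (log2 fold change -0.50, SE 0.09, adjusted p = 0.0145), and 0 were higher in males. Of the 6 receptor chaperones, none passed the adjusted p of limma, and 0 had an unadjusted p below 0.05. The 14 tested genes of ligand handling, which make, carry or degrade hormones, included 4 higher in males. Hsd17b1 of the rat reduces estrone to estradiol and also androstenedione to testosterone. Its relative log2 signal was -0.51 to 0.19 in females and 1.05 to 1.67 in males, or 2.86-fold higher in males (log2 fold change 1.52, SE 0.18, adjusted p = 0.00253). Hsd17b2, which oxidizes estradiol back to estrone, went the other way, at 0.28 to 0.54 in females and -0.84 to -0.32 in males (-0.93, SE 0.12, adjusted p = 0.0041). Neither pair of ranges overlapped. Aldh1a1, a retinaldehyde dehydrogenase that makes retinoic acid, had a log2 difference of 0.91 (adjusted p = 0.00185).

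Stra6, the cell-surface receptor for retinol-binding protein and a retinoic acid target, was 0.31 to 0.58 in females and -1.00 to -0.56 in males. Its log2 fold change was -1.18 (SE 0.11, adjusted p = 0.00126), or 2.26-fold higher in females, the 1 called gene of 5 retinoic acid targets. Of these 5, 3 had a positive log2 fold change and 2 a negative one. Cyp26a1 (0.76, SE 0.20, adjusted p = 0.0542) and Cyp26b1 (0.89, SE 0.25, adjusted p = 0.0675) had the sign opposite to Stra6 and were not called. Of 3 estrogen receptor targets, Prlr, the prolactin receptor, was higher in males, at -3.02 to -2.28 in females and -1.65 to -1.16 in males (log2 fold change 1.12, SE 0.18, adjusted p = 0.00885).

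Of the 18 PPAR targets tested, 6 were higher in males and 0 in females at the adjusted p, beside 3.39% and 4.66% of all probes. An unadjusted p of limma below 0.05 was reached by 7 higher in males and 2 higher in females, beside 9.73% and 15.8% of all probes. The 2 were Pdk4 (log2 fold change -1.06, adjusted p = 0.0528), well above background on 4 female arrays and 1 male array, and Fabp3 (-0.34, adjusted p = 0.0768). The called genes included Vnn1, a pantetheinase, at 0.87 (SE 0.17, adjusted p = 0.0207), and Ehhadh, of peroxisomal beta-oxidation, at 0.55 (SE 0.13, adjusted p = 0.0417). Cpt1a and Acadm of mitochondrial fatty acid oxidation had log2 fold changes of 0.54 (adjusted p = 0.0477) and 0.48 (adjusted p = 0.00322). The median of the 18 genes was 0.15. The calls of Cpt1a and Ehhadh were lost under 10 of 18 alternative settings each, with adjusted p of up to 0.111 and 0.0959, and that of Vnn1 under 3.

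**Figure D4:**
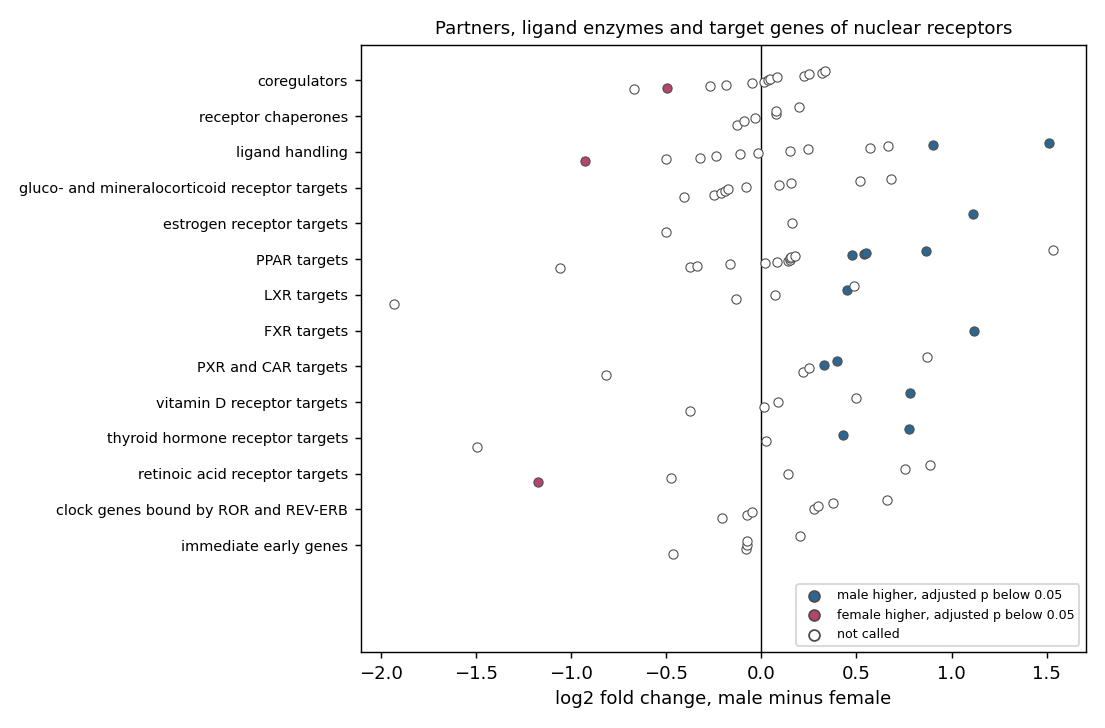
Log2 fold change, male minus female (x axis), of the tested genes of each pathway list (rows), 1 point per gene. Blue points were higher in males and red points higher in females at an adjusted p below 0.05, and open points were not called. Hsd17b1, at 1.52, lies farthest to the right of the called genes shown; Abcb11, for which females give only a bound, and 4 genes not reported here are left out.

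The called targets of the other lipid and xenobiotic sensors were all higher in males, as 3.39% of all probes were. Of 5 LXR targets, Lpcat3, which loads polyunsaturated fatty acids into phospholipids, had a log2 fold change of 0.45 (SE 0.09, adjusted p = 0.0206), and 6 of 18 settings put it above the threshold. Of these targets 3 had a positive and 2 a negative log2 fold change, and Scd, at -1.93 (SE 0.59, adjusted p = 0.0861), was not called. Both tested FXR targets were called higher in males, Abcb11 after passing the filter through the male arrays alone. Slc51a, one chain of the basolateral bile acid and steroid exporter, was -0.98 to -0.34 in females and 0.33 to 0.49 in males (1.12, SE 0.14, adjusted p = 0.00305). Abcb11, the bile salt export pump, was well above background on 0 female and 4 male arrays. Against the lowest signal well above background, it was at least 2.23-fold higher in males without normexp correction. Its adjusted p of limma (0.00571) does not belong to that bound, since the fit used female values below the limit of detection. With normexp correction the log2 fold change of Abcb11 was 0.41 (SE 0.15, adjusted p = 0.113), smaller than that bound and no longer called. Of 6 targets of PXR and CAR, Abcc2, an apical drug exporter, had 0.40 (SE 0.06, adjusted p = 0.00627) and Por, the electron donor of cytochromes P450, 0.33 (SE 0.07, adjusted p = 0.0302), the latter above the threshold in 9 of 18 settings. Cyp2b1, the classical CAR target, was highest in female 4, where Nr1i3 was low, and had a log2 difference of -0.82 (adjusted p = 0.369). Abcb1a of the same list was -4.94 in female 1, its highest female, and -6.34 in female 3, the rats where Nr1i3 was high. It had a log2 difference of 0.87 (adjusted p = 0.145). A link of Nr1i3 to these genes was not tested.

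S100g, the calcium-binding protein calbindin-D9k, was the 1 called gene of 5 vitamin D receptor targets, at -0.86 to -0.62 in females and -0.06 to 0.20 in males (log2 fold change 0.78, SE 0.09, adjusted p = 0.00219). Vdr itself had the opposite sign, without passing the test. Of 4 thyroid hormone receptor targets, Bcl3 was higher in males by 0.78 (SE 0.08, adjusted p = 0.00136) and Hr, a corepressor, by 0.43 (SE 0.10, adjusted p = 0.0418), the call of Hr being lost under 13 of 18 settings. Of 10 targets of the glucocorticoid and mineralocorticoid receptors, none passed the adjusted p of limma, and 2 had an unadjusted p below 0.05, 1 in each direction. The 7 clock genes and 5 immediate early genes likewise held no call of limma, with 2 and 0 genes at an unadjusted p below 0.05.

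**Figure D5:**
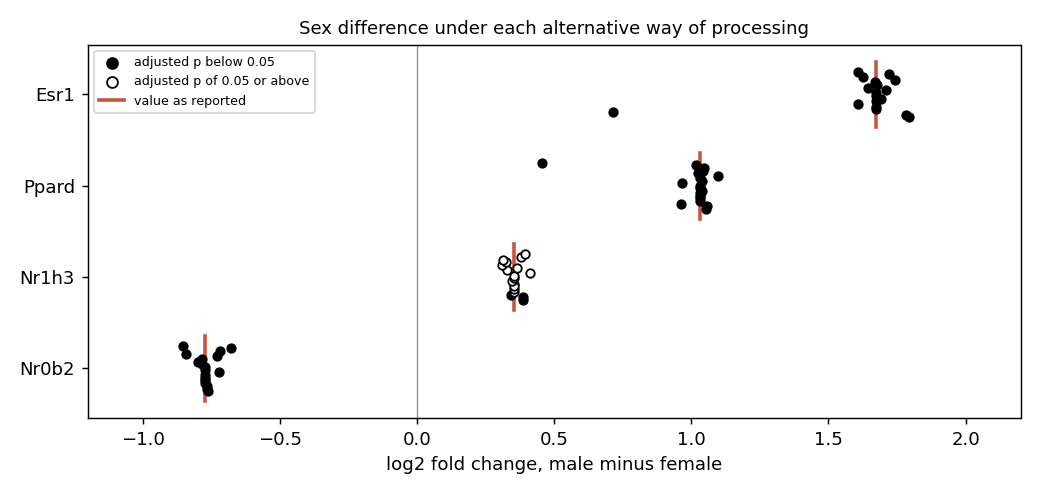
Log2 fold change, male minus female (x axis), of Esr1, Ppard, Nr1h3 and Nr0b2 under each alternative way of processing the signals, 1 point per setting. Filled points had an adjusted p below 0.05, the vertical line is the value as reported, and the point of Esr1 at 0.71 is normexp correction and that of Ppard at 0.46 its second probe.

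The 4 receptors plotted by setting kept their direction in every setting tried. Esr1 ranged from 0.71 to 1.80 with an adjusted p of at most 0.00936, Ppard from 0.46 to 1.10 (at most 0.0253), Nr0b2 from -0.85 to -0.68 (at most 0.0367) and Nr1h3 from 0.31 to 0.41 (0.0291 to 0.141).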

How the data were processed

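Cortical kidney RNA of 4 male and 4 female rats was measured on 8 one-colour Agilent arrays. The authors deposited, per the file headers, the signal intensity of each of 62976 spots from Feature Extraction 10.7.3.1, background-subtracted and not normalized between arrays, and log2 values with the same median on every array and the rank order of the signals. The submitters' processing notes name limma 3.8.2.

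Here outlier spots were left out of 58717 non-control spots, log2 was taken without a pseudocount, values were set relative to the 75th percentile of their array, and replicate spots were averaged. Where all spots of a probe on an array were outliers (34 cases, counted per probe and array), they were kept. Of 30367 probes, 23425 exceeded background clearly on 4 or more of 8 arrays. These were fitted as male minus female without covariates with limma 3.58.1 (lmFit, eBayes) in R 4.3.3 with data.table (1.17.8). The study's thresholds are an adjusted p below 0.05 and a log2 fold change of at least 1. The two-sided exact permutation test ran over 70 assignments. A gene on 0 arrays of a sex was given a lower bound, against the lowest signal well above background. The number of arrays limits the precision.

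The receptors and gene lists were chosen with earlier results of these data known. Every receptor was named. Values on every array were given for receptors with an adjusted p below 0.05, for those without overlap of the sexes at an unadjusted p below 0.05, and for 7 receptors of known renal or sex-related role, and up to 3 called genes per pathway list and direction were named. Marker and pathway genes used their brightest probe. Nr1i3, Nr4a1, Nr4a3, Adipoq, Cfd, Fabp4, Fos, Egr1, Atf3, Junb, Ier2, Cyp2b1, Cpt1a and Acadm were described beyond that rule, after their values were seen. The same holds for Pdk4, Fabp3, Cyp26a1, Cyp26b1, Scd and Abcb1a. Some called genes of the pathway lists, which the counts include, are not reported here.

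In simulated data of the same size, the test called 187 of 200 probes given a log2 change of 2, and 2 others. That change is larger than the difference of any receptor tested (-1.21 to 1.67), and recovery of smaller changes was not tested. The replicate numbers were not taken as pairs, since nothing in the labels says that they mark a shared litter, batch or day. Promoter windows are from RefSeq (Python 3.11.15, pandas 2.3.3 and matplotlib 3.10.9).

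Alternatives were quantile normalization, the authors' log2 values, normexp correction (offset 50) of the median spot signal, no filter, a filter over 8 arrays, outlier spots kept, an intensity trend with robust prior, array weights, the replicate number or the slide row as a block, leaving out each array, and the second brightest probe.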

Additional observations from a re-analysis of the deposited data

Results flagged for a closer look

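The male values of Vdr and Nr2f6 each held a rat that stood apart from its group by Dixon's criterion. Vdr was -3.66 in male 3 and -3.40 to -3.38 in the other males. Nr2f6 was 3.33 in male 1 and 3.04 to 3.07 in the other males. These were 2 of 66 groups of 4 rats examined, of which chance flags about 3.3.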

How the results depend on the processing

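Esr1, Ppard and Nr0b2 kept their direction and an adjusted p below 0.05 in every setting tried, and Nr1h3 passed in 4 of 18. The 2 receptors that also differed 2-fold became 0 with normexp correction and 1 with the second brightest probe. Leaving out 1 rat gave 1 to 2 of them (1 without female 1). At the adjusted p, all probes numbered 1886, against 1192 without a filter on dim probes and 1025 with the replicate number as a block, and 1012 to 1539 when 1 rat was left out. The block kept 3 receptors called (2 of them 2-fold). Same-numbered rats correlated by -0.01 to 0.12 in their deviations from the group means, which does not settle whether they shared a litter, batch or day. The numbers were not treated as pairs because the labels do not mark them as such. Pathway genes higher in females numbered 6, not 3, with an intensity trend and robust prior, and those higher in males 12 to 17, not 19, when 1 rat was left out (lowest without male 1).

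Changes of sign were found for receptors that were not called. Quantile normalization gave Esrrg 0.015, Nr2c2 0.0081 and Ppara 0.036, and the authors' log2 values gave Esrrg 0.0061, Nr2c2 0.00024 and Ppara 0.039. Normexp correction gave Nr4a3 -0.075 and Esr2 -0.020. The second brightest probe gave Rarg 0.0070 and Nr3c1 -0.065. Leaving out 1 rat gave Nr4a1 -0.030 to 0.38, Nr4a3 -0.19 to 0.50, Ppara -0.17 to 0.18 and Esrra -0.028 to 0.056. The cause was not tested. Esr2, Pgr, Thrb and Nr4a3 were well above background on 5 or 6 of the 8 arrays, which limits what their values can show.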
